A study of Mus musculus with 4 samples.

Results

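The SLAM family receptors and their adaptor were followed as 7 genes among the 31053 genes of the count matrices: the receptor genes Slamf1, Slamf6, Slamf7, Cd48, Cd84 and Ly9, and Sh2d1a, which encodes the adaptor SAP. They were chosen by name, and all 7 were found in each of the 4 matrices. Donor T cells came from spleens of BALB/c recipients, which had been irradiated with 900 cGy and given T cell-depleted marrow of wild-type C57BL/6 mice (CD45.1+ CD45.2+) together with C57BL/6 regulatory T (Treg) cells, sorted as CD45.2+ CD4+ Foxp3-GFP+ CD25hi. Wild-type CD45.1+ conventional CD4+ and CD8+ T cells without Treg cells followed 2 days later and induced acute graft-versus-host disease, an attack of donor T cells on recipient tissue. On day 8, living H-2Kb+ TCRb+ cells were sorted, which keeps donor and not recipient T cells, stained with barcode-carrying antibodies that tell CD45.1 from CD45.2, and run on the 10x 3′ platform, with 3 pooled per sample. The transferred Treg cells were CD226+/+ TIGIT+/+ (wild type), CD226-/- TIGIT+/+ (CD226 knockout), CD226+/+ TIGIT-/- (TIGIT knockout) or CD226-/- TIGIT-/- (double knockout), with 1 library for each. The conventional cells and the marrow were wild type in all 4. The labels give no age for the mice.

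SLAM receptors are cell surface proteins of lymphocytes and other blood cells. Most of them bind a copy of themselves on the neighbouring cell, whereas CD48 binds CD244 and CD2. The cytoplasmic tails of several of them, not of all, recruit SAP, a small adaptor that brings in the kinase Fyn, or phosphatases when SAP is missing. The pair of SLAM receptors and SAP is known for its part in T follicular helper cells, NKT cell development and cytotoxicity. Slamf6 is also widely used as a surface marker of T cells that express the transcription factor gene Tcf7.

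The 6 receptor genes lie side by side on chromosome 1 within 364.547 kb (chr1:171588624-171953170, GRCm38, GENCODE M21), in the order Ly9, Slamf7, Cd48, Slamf1, Cd84 and Slamf6, with Ly9 and Slamf7 on the minus strand. Sh2d1a lies on chromosome X (chrX:42502453-42529330, plus strand). Ly9 overlaps Cd244 on the other strand. Whether the counting used strand is not given in the sources used here, so whether reads of the overlap were told apart is not known here. RefSeq's promoter table (GRCm38.p6) matched 5 of the 7 genes, not Ly9 or Sh2d1a. The 250 bases before the RefSeq start are shown for 4 genes of this cluster whose transcripts passed the Tcf7 comparison below in both CD4 and CD8 cells: Slamf6 and Cd84 higher, Slamf7 and Cd48 lower in cells with Tcf7. Both strands were searched for CTTTGA and CTTTGT, the core bound by the TCF and LEF factors to which the Tcf7 protein belongs. Each sequence is written 5′ to 3′ on the strand of its gene, and capitals mark a match, here read on the opposite strand.
Slamf6 (chr1:171917212-171917461, plus strand): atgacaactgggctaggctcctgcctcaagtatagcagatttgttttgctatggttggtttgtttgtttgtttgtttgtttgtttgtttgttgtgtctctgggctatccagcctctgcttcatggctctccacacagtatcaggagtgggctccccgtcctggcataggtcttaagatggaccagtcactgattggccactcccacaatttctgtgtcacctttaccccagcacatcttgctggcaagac
Cd84 (chr1:171839447-171839696, plus strand): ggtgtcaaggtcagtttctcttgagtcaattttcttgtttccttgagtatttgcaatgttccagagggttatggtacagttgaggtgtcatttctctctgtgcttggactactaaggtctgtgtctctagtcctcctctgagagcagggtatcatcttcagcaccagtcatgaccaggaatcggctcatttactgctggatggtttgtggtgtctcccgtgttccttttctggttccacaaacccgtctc
Slamf7 (chr1:171649000-171649249, minus strand): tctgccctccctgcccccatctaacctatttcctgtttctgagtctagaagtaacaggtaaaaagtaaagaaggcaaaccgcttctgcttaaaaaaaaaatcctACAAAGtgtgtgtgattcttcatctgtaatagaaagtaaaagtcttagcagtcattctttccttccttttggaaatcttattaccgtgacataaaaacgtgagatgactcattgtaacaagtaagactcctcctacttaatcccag
Cd48 (chr1:171681742-171681991, plus strand): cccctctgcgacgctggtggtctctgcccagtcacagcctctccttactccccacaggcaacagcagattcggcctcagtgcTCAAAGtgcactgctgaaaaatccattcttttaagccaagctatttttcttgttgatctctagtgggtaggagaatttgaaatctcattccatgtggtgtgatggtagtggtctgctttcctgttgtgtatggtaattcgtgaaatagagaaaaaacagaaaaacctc
The Slamf7 window holds 1 CTTTGT and the Cd48 window 1 CTTTGA, and the windows of Slamf6, Cd84 and Slamf1 hold no match. The Slamf7 window lies inside the span of the gene in the annotation above (chr1:171632403-171653035), downstream of the start given there. Slamf1, with no match in its window, was lower with Tcf7 in CD4 cells as Slamf7 and Cd48 were. Of 32851 such windows, 13.8% hold CTTTGA, 16.5% CTTTGT and 27.6% either. A match is a description of the letters and not a site.

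Barcodes with fewer than 500 genes or more than 10% of UMIs (unique molecular identifiers, which count captured transcripts) from mitochondria were dropped, leaving 7654 cells in the wild-type, 9045 in the CD226-, 10383 in the TIGIT- and 9058 in the double-knockout library, with median depths of 6972 to 9026.5 UMIs. Classes were set by how CD45.1 and CD45.2 antibody counts compared, as a log2 ratio: 332 to 462 Treg-origin cells per library (ratio below -0.6), 2750 to 3100 conventional CD4 cells and 2098 to 3415 conventional CD8 cells (ratio above 2.2). Conventional cells were further split by Cd4 against Cd8a plus Cd8b1 UMIs, and Treg-origin cells were not. Ties and conventional cells with neither, with medians of 5853 to 7019 UMIs, were left out. No member's RNA was used to form the classes. Libraries shared few barcodes, 172 of 39249 distinct ones occurring in more than 1. Treg-origin cells were shallower (medians of 3921.5 to 5372 UMIs) than CD4 (7039.5 to 9013) and CD8 cells (8887 to 11901). The 4 Treg markers together stood at 887 to 914 CPM (UMIs scaled to a common total of the class) in Treg-origin cells against 139 to 173 in CD4 cells. The 2 CD8 markers summed to 21.5 to 36.4 CPM in Treg-origin and 6.02 to 7.63 CPM in CD4 cells. The part of the split by Cd4 and Cd8 UMIs in the differences between these classes was not tested. Of other cell types, the 5 neutrophil markers summed to 3.90 to 1717 CPM, the 6 B cell markers to 216 to 2084 CPM and the 5 erythroid markers to 16.2 to 996 CPM in Treg-origin cells. The highest neutrophil sums were those of the wild-type and TIGIT-knockout libraries, and the CD226-knockout library had the highest B cell and erythroid sums.

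Treg-origin cells carried fewer transcripts of Slamf7 and Cd48 and more of Slamf6 and Cd84 than the conventional CD4 cells beside them. With edgeR's quasi-likelihood test over all genes, 4 of the 7 members passed an adjusted p of 0.05, 2 in each direction, where 42% of 10775 genes tested did so (21.5% higher, 20.5% lower). The median log2 fold over the members was -0.01, against 0.01 over all genes tested. The 3 T cell markers summed to 2283 to 2464 CPM in Treg-origin and 1646 to 1854 CPM in CD4 cells. Their part in the members' differences was not tested. CPM of a 3′ assay are compared here within a gene only.

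Slamf7 encodes a self-binding receptor known from NK cells, plasma cells and activated T cells. It stood at 31.7, 23.5, 27.7 and 42.0 CPM in Treg-origin cells of the wild-type, CD226-, TIGIT- and double-knockout libraries (the order used throughout), and at 92.1, 90.0, 88.1 and 81.3 CPM in CD4 cells. The 2 ranges do not overlap. The means were 31.2 ± 7.92 and 87.9 ± 4.69 CPM (SD, n = 4 libraries), and Slamf7 was 2.82-fold lower in edgeR's fit (adjusted p 3.15e-07). A Slamf7 UMI was found in 9.74% to 16.5% of Treg-origin and 42.3% to 49.9% of CD4 cells. After thinning each cell to 2000 UMIs, which left out 14 to 57 Treg-origin and 12 to 27 CD4 cells per library, the shares were 3.81% to 6.78% and 14.1% to 16.1%. No Slamf7 UMI was found in 31 barcodes with myeloid transcripts and no T cell receptor transcript (median depths of 4613 to 9158.5 UMIs), which allows a share of up to 9.68%, while 5 of 7 barcodes with B cell transcripts and no T cell receptor transcript had one.

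Cd48, the widely expressed ligand of CD244 and CD2, was 507.0, 512.2, 431.7 and 501.7 CPM in Treg-origin cells and 666.6, 665.8, 656.3 and 655.2 CPM in CD4 cells. All 4 Treg-origin values lie below all 4 CD4 values, and the CD4 values have an SD of 6.06 CPM around a mean of 660.9 CPM. The edgeR log2 fold was -0.45 (adjusted p 5.87e-06).

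Slamf6 was 118.4, 162.5, 132.8 and 156.6 CPM in Treg-origin cells and 95.8, 131.9, 96.2 and 119.1 CPM in CD4 cells. The ranges overlap, but Slamf6 was higher in Treg-origin cells of each library, with a mean log2 ratio of 0.36 ± 0.08 (SD, n = 4). The edgeR log2 fold was 0.36 (adjusted p 0.00027), and 0.19 (adjusted p 0.0676) after thinning. Cd84, another self-binding receptor that recruits SAP, was 73.3, 80.1, 71.6 and 64.4 CPM against 56.9, 54.8, 52.4 and 60.7 CPM, with no overlap. Its edgeR log2 fold was 0.35 (adjusted p 0.00154).

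The other 3 members did not pass. Slamf1, a self-binding receptor of activated lymphocytes, was 33.8, 52.6, 33.9 and 63.9 CPM in Treg-origin and 55.1, 55.4, 49.4 and 58.4 CPM in CD4 cells. Treg-origin cells of the double-knockout library alone were above their CD4 cells. The log2 fold was -0.28 (adjusted p 0.0586), and -0.45 (adjusted p 0.0066) without the double-knockout library, while stricter antibody cutoffs gave 0.04 (adjusted p 0.852) and thinning 0.09 (adjusted p 0.646). Over 11 alternative settings of the edgeR or DESeq2 fit, the adjusted p of Slamf1 ran from 0.000296 to 0.852. Ly9, a self-binding receptor of lymphocytes, was 34.6 to 42.3 against 31.2 to 36.1 CPM, with a log2 fold of 0.18 (adjusted p 0.0748).

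Sh2d1a was 170.0, 235.8, 221.1 and 225.5 CPM in Treg-origin cells against 201.3, 251.8, 175.8 and 226.5 CPM in CD4 cells. The groups overlap, and only the TIGIT-knockout library was higher in Treg-origin cells. Its log2 fold was -0.01 (adjusted p 0.904), and 0.31 (adjusted p 0.0018) with stricter antibody cutoffs (below -1.5 and above 3). The gene is X-linked, and the X-inactivation transcript Xist was 685 to 758 CPM in Treg-origin cells and 0.42 to 1.16 CPM in CD4 cells, so the sex of the donors differed between these classes and its part was not tested.

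**Figure D1:**
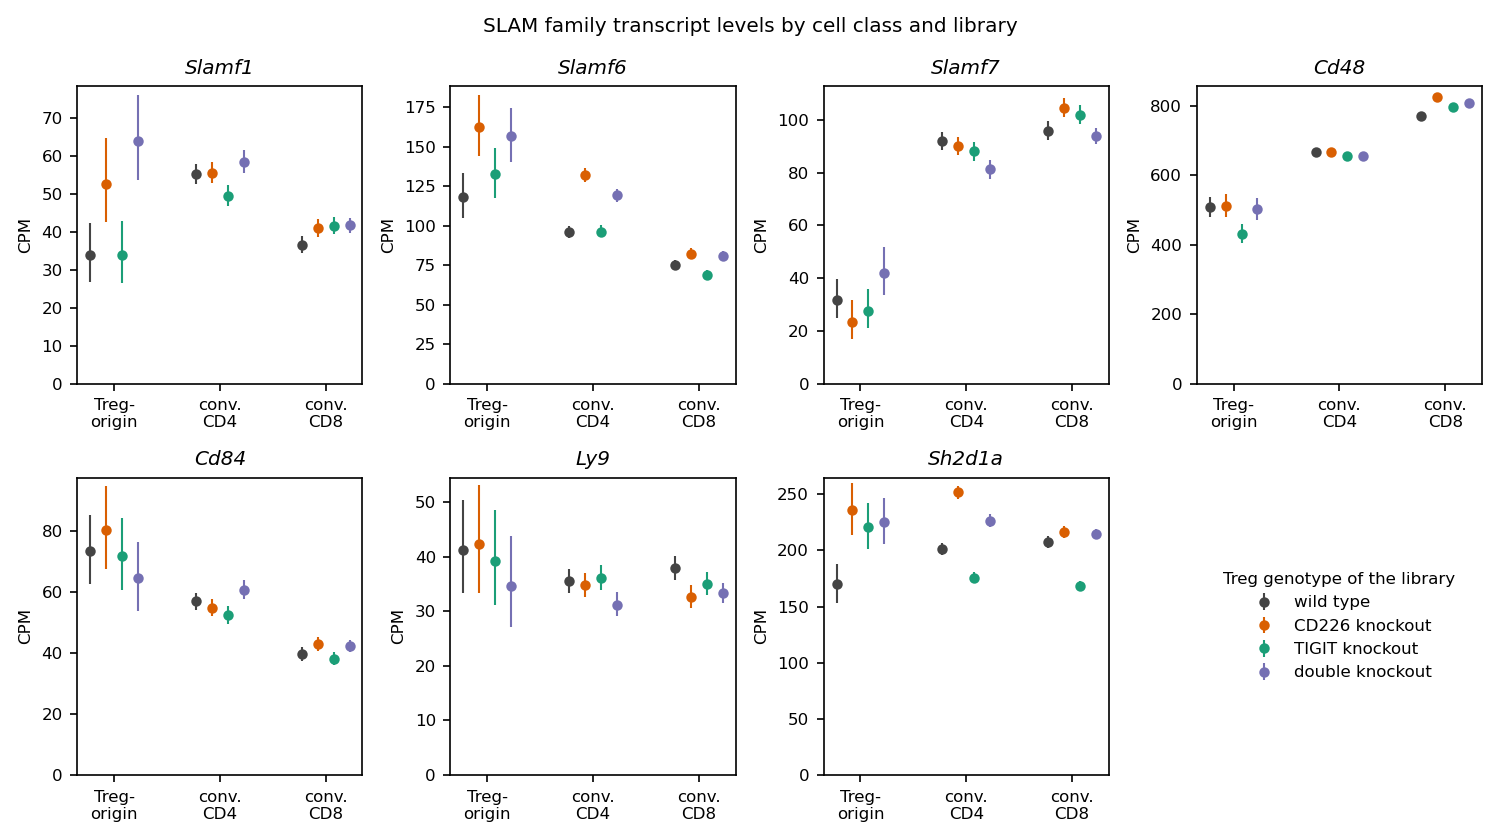
Transcript levels of the 7 genes in CPM (y axis, from 0) by cell class (x axis) and library (colour). Points are class sums of 1 library and bars exact 95% Poisson intervals of the counts. The Slamf7 points of Treg-origin cells lie at 23.5 to 42.0 CPM, below the 81.3 to 92.1 CPM of CD4 cells, and the Cd48 points rise from Treg-origin to CD4 to CD8 cells.

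Around the members, 16 further genes of SLAM signalling were listed and 12 could be tested, of which 2 were higher and 3 lower in Treg-origin than in CD4 cells. Inpp5d, the lipid phosphatase SHIP-1, was higher (67.7 ± 2.67 against 38.8 ± 1.41 CPM, SD, n = 4, log2 fold 0.79), and so was Cd2, which encodes a receptor for CD48 (775 ± 28.2 against 474 ± 9.57 CPM, log2 fold 0.70). The tyrosine phosphatase genes Ptpn6 (log2 fold -0.91) and Ptpn11 (log2 fold -0.55), whose products SLAM receptors can recruit, were lower. The genes for SAP's relatives were hardly seen: Sh2d1b1 was at most 1.30 CPM in any class, and Sh2d1b2 had 0 UMIs in each.

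Conventional CD8 cells had more Cd48 and Slamf7 and less Slamf6, Cd84 and Slamf1 than conventional CD4 cells. These are 5 of the 7 members, 2 higher and 3 lower, where 46.5% of 11490 genes tested passed (22.9% higher, 23.7% lower). Slamf6 was 75.1, 82.2, 68.6 and 80.8 CPM in CD8 cells, all below the CD4 values above, with a log2 fold of -0.51 (adjusted p 1.46e-06). Cd84 was 39.6, 43.0, 38.1 and 42.3 CPM (log2 fold -0.45, adjusted p 6.57e-07) and Slamf1 36.6, 40.9, 41.6 and 41.6 CPM (log2 fold -0.43, adjusted p 1.06e-05). For these 3 receptors every CD8 library lay below every CD4 library.

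Cd48 was 769.7, 825.0, 797.4 and 808.7 CPM in CD8 cells (log2 fold 0.29, adjusted p 3.66e-07). Slamf7 was 96.0, 104.7, 102.1 and 93.9 CPM (log2 fold 0.19, adjusted p 0.000332). Both ranges lie above those of CD4 cells, which in turn lie above those of Treg-origin cells, so for Cd48 and Slamf7 the order was CD8, CD4, Treg-origin, and for Cd84 it was the reverse.

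Ly9 was 32.6 to 37.8 CPM in CD8 cells (log2 fold 0.02, adjusted p 0.647) and Sh2d1a 168.3 to 216.3 CPM (log2 fold -0.07, adjusted p 0.123). Neither gene passed, and their ranges overlap with those of CD4 cells. Without the wild-type library the log2 fold of Sh2d1a was -0.11 (adjusted p 0.0209). Of the 12 pathway genes tested, 3 were higher and 7 lower in CD8 cells. Cd244, the receptor gene for CD48 that overlaps Ly9, moved most, at 11.5 ± 1.25 against 1.85 ± 0.235 CPM (SD, n = 4, log2 fold 2.64), followed by Cd2 and Ptpn6 (both -0.29) and Inpp5d (-0.28).

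Among Treg-origin cells, those with a UMI of Foxp3 or Ikzf2, transcription factor genes of Treg cells, carried more Slamf1, Slamf6 and Sh2d1a than those without. They were 73.4% to 78.3% of the class per library, at about the depth of the rest, and a cell without a UMI can still express either gene. The 3 genes passed as higher and no member as lower, where 4.22% of 6948 genes tested passed (2.04% higher, 2.17% lower). Slamf1 was 41.0, 61.9, 38.2 and 74.5 CPM in cells with and 9.5, 22.2, 20.2 and 34.8 CPM in cells without such a UMI. The highest value without lies below the lowest value with, the log2 fold was 1.28 and the adjusted p 0.00035. Cells without such a UMI were 72 to 114 per library, with 405734 to 545723 UMIs of all genes. Slamf1 thus rests on few UMIs there. The log2 fold was 0.64 (adjusted p 0.165) after thinning, where the gate was read again on the thinned counts.

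Slamf6 was 130.3, 187.1, 138.9 and 181.6 CPM with against 78.0, 81.3, 113.0 and 88.0 CPM without (log2 fold 0.78, adjusted p 0.000296). Sh2d1a was 185.9, 269.8, 239.0 and 246.1 CPM with against 116.1, 123.2, 163.4 and 168.6 CPM without (log2 fold 0.68, adjusted p 0.00012). The receptor and the adaptor were thus higher in each library, and neither pair of ranges overlaps. Ly9 had a log2 fold of 0.40 (adjusted p 0.322), Cd84 was higher in 3 of 4 libraries and Slamf7 had log2 ratios of mean -0.08 with an SD of 0.86 over the 4 libraries. With the stricter antibody cutoffs no member passed in edgeR, with 3 at an unadjusted p under 0.05, and with the cutoffs above DESeq2 called 2 and gave no adjusted p for 4, Slamf1 among them. The B cell markers summed to 7946 CPM in the CD226-knockout cells without either UMI. The neutrophil markers summed to 7525 CPM in the wild-type cells without and 2047 CPM in the TIGIT-knockout cells with one. The same number of members, 3, passed when cells carrying markers of other types were left out, a filter that did not count Ighm or Igkc. The 2 CD8 markers summed to 9.55 to 20.02 CPM with and 29.3 to 127.5 CPM without a Foxp3 or Ikzf2 UMI, and the 3 T cell markers to 2422 to 2535 CPM with and 1810 to 2235 CPM without, and the part of either in the members' difference was not tested. Of 11 pathway genes tested, Cd2 was higher (log2 fold 0.50).

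Conventional CD4 cells with a UMI of Cxcr5, the chemokine receptor gene of T follicular helper cells, held several times more Slamf6 and Sh2d1a than the other CD4 cells. They were 91 of 2750, 81 of 3098, 90 of 3100 and 67 of 2813 CD4 cells, shallower than the rest (median depths of 4141.5 to 6041 against 7110.5 to 9112 UMIs). All 7 members passed, 4 higher and 3 lower, where 24.3% of 10582 genes tested passed (11.6% higher, 12.7% lower). The median log2 fold was 0.45 over the members and -0.02 over all genes.

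Slamf6 was 393.9, 478.2, 456.4 and 561.1 CPM in cells with a Cxcr5 UMI and 88.2, 124.1, 88.7 and 111.6 CPM in cells without. The means were 472 ± 69.1 and 103 ± 17.7 CPM (SD, n = 4). The mean log2 ratio per library corresponds to 4.56-fold, and the edgeR log2 fold was 2.15 (adjusted p 9.88e-47). Sh2d1a was 524.3, 635.5, 558.7 and 670.1 CPM with and 193.1, 243.1, 167.8 and 219.0 CPM without (2.83-fold in edgeR's fit, adjusted p 3.46e-38). Receptor and adaptor were apart in all 4 libraries by more than the spread between libraries. Cd84 was 133.1, 110.6, 92.8 and 106.5 CPM with and 54.9, 53.5, 51.5 and 59.9 CPM without (1.98-fold by the mean log2 ratio per library, edgeR adjusted p 1.59e-12).

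Cd48 fell by 1.10 on the log2 scale (321.8 ± 32.2 against 668.3 ± 7.71 CPM, SD, n = 4, adjusted p 2.18e-29). Slamf1 was 23.3, 31.2, 37.9 and 37.9 CPM with and 49.6 to 58.8 CPM without (log2 fold -0.84, adjusted p 2.34e-05). Slamf7 was 47.3 to 63.1 CPM with and 81.9 to 92.9 CPM without (log2 fold -0.77, adjusted p 4.21e-07). The family thus split, with Slamf6, Cd84 and the adaptor high and Cd48, Slamf1 and Slamf7 low in the same cells. Ly9 (37.9 to 54.9 against 31.1 to 35.7 CPM, log2 fold 0.45, adjusted p 0.0229) did not pass without the wild-type (adjusted p 0.136) or the TIGIT-knockout library (adjusted p 0.122), nor in DESeq2 (adjusted p 0.0676), and its log2 fold was -0.17 (adjusted p 0.902) after thinning. The 6 B cell markers summed to 293.7 to 373.8 CPM with and 72.5 to 87.1 CPM without a Cxcr5 UMI, of which Ighm gave 277 to 369 CPM with the UMI, and Cd79a and Ms4a1 were at 0 there. The 4 Treg markers summed to 246 to 336 CPM with and 137 to 170.5 CPM without, and the 3 T cell markers to 2509 to 2813 CPM with and 1628 to 1837 CPM without, and their part was not tested. When cells carrying markers of other types were left out, 6 members passed, but that filter did not count Ighm or Igkc.

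Fyn, the kinase gene that acts with SAP, was higher in the cells with Cxcr5 (251 ± 26.2 against 144 ± 6.91 CPM, SD, n = 4, log2 fold 0.75), as were Ptpn11 (log2 fold 0.92) and Cd2 (0.41), while Ptpn6 was lower (-0.40). In all, 5 of the 12 pathway genes tested were higher and 1 was lower.

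Cells with a UMI of Tcf7, which encodes the TCF-1 transcription factor of naive, memory-like and follicular helper T cells, had higher Slamf6, Sh2d1a, Cd84 and Ly9 and lower Slamf7, Cd48 and Slamf1 among CD4 cells. This comparison and the one by Cxcr5 divide the same CD4 cells and share most of the cells without a UMI, so they are not independent. Cells with a Tcf7 UMI were 10.9% to 13.0% of CD4 cells per library and shallower than the rest (4756 to 6387 against 7334 to 9389 UMIs). All 7 members passed, 4 higher and 3 lower, where 37.3% of 10675 genes did (18.6% higher, 18.7% lower). Slamf6 was 276.1, 379.6, 313.0 and 314.5 CPM with and 74.2, 102.8, 76.6 and 96.9 CPM without a Tcf7 UMI (log2 fold 1.86, adjusted p 8.35e-24). Sh2d1a was 316.9, 379.6, 321.9 and 361.9 CPM with and 187.4, 236.8, 162.5 and 211.1 CPM without (log2 fold 0.78, adjusted p 1.38e-15). Neither pair of ranges overlaps.

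Cd84 was also higher (90.0 ± 5.23 against 52.5 ± 3.53 CPM, SD, n = 4, log2 fold 0.76, adjusted p 8.1e-12), as was Ly9 by a smaller step (41.1 ± 3.71 against 33.7 ± 2.10 CPM, log2 fold 0.27, adjusted p 0.007). Slamf7 (55.8 ± 8.38 against 91.4 ± 5.03 CPM, log2 fold -0.72, adjusted p 4.85e-10), Cd48 (462.0 ± 24.7 against 682.9 ± 8.98 CPM, log2 fold -0.58, adjusted p 8.9e-14) and Slamf1 (39.9 ± 1.71 against 56.2 ± 4.22 CPM, log2 fold -0.50, adjusted p 5.9e-07) were lower. The Ly9 call was lost with the stricter cell filter (adjusted p 0.366), the stricter antibody cutoffs (0.0597) and thinning (0.0526). Of the pathway genes, 6 of 12 were higher and none lower, among them Ptpn11 (log2 fold 0.46), Fyn (0.43), Nck1 (0.33) and Lck (0.28). The B cell markers, nearly all Ighm, summed to 173 to 229 CPM with and 65.3 to 81.9 CPM without a Tcf7 UMI. All 7 members passed when cells with markers of other types were left out, but that filter did not count Ighm or Igkc. The 3 T cell markers summed to 2144 to 2291 CPM with and 1601 to 1819 CPM without, and Cd4 was 217 to 274 against 179 to 200 CPM. The 5 neutrophil markers reached 1220 CPM with and 44.9 CPM without, with medians of 3.44 and 4.58 CPM over the libraries. The part of these markers in the members' differences was not tested.

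Among conventional CD8 cells, a Tcf7 UMI (5.24% to 8.01% of cells per library, slightly deeper than the rest) went with higher Slamf6, Cd84 and Sh2d1a and lower Cd48 and Slamf7. These 5 members passed, where 17.4% of 10728 genes did (9.14% higher, 8.28% lower). Slamf6 was 184.1, 173.4, 152.4 and 165.9 CPM with and 65.0, 75.2, 63.2 and 74.4 CPM without (log2 fold 1.28, adjusted p 2.96e-19). Cd84 was 62.3, 61.0, 63.8 and 69.6 CPM with and 37.5, 41.6, 36.5 and 40.3 CPM without (log2 fold 0.72, adjusted p 8.01e-10). For both receptors the ranges are far apart. Sh2d1a was 266.3, 260.1, 190.3 and 265.9 CPM with and 202.4, 212.9, 166.9 and 210.7 CPM without, higher in each library though the ranges overlap (log2 fold 0.31, adjusted p 2.34e-07).

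Cd48 (651.7 ± 50.5 against 811.9 ± 21.0 CPM, SD, n = 4, log2 fold -0.33, adjusted p 6.61e-11) and Slamf7 (81.3 ± 7.28 against 100.5 ± 4.88 CPM, log2 fold -0.31, adjusted p 8.71e-05) were lower in all 4 libraries. Slamf1 did not pass (log2 fold -0.26, adjusted p 0.0539), and had a log2 fold of -0.42 (adjusted p 0.0089) without the CD226-knockout library and -1.74 (adjusted p 0.0317) after thinning. Thinning left 43 to 70 cells per library with a Tcf7 UMI, against 152 to 221 before. Of these thinned cells 0% to 6.98% had a Slamf1 UMI, so that value rests on very few UMIs. Ly9 was nearly level (log2 fold 0.05, adjusted p 0.765). After thinning, the Sh2d1a and Slamf7 calls were lost (adjusted p 0.768 and 0.274). Cd4 itself was 34.4 to 53.0 CPM with and 20.04 to 24.8 CPM without a Tcf7 UMI, and the 2 CD8 markers summed to 745 to 852 CPM with and 872 to 1068 CPM without. The 3 T cell markers summed to 1757 to 1786 CPM with and 1488 to 1623 CPM without. The part of these markers in the members' differences was not tested. Among the pathway genes 4 were higher and 1 was lower, with Cd244 at 6.76 ± 2.28 against 11.9 ± 1.24 CPM (SD, n = 4, log2 fold -0.87), Fyn at 0.25, Csk, which encodes a kinase that restrains Src kinases, at 0.19, and Cd2 at 0.16 on the log2 scale.

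The step that goes with a Tcf7 UMI differed between CD8 and CD4 cells for 4 members in a test of the difference itself, where 4.67% of 11074 genes passed (2.96% with a higher and 1.71% with a lower value in CD8 cells). It was smaller in CD8 cells for Slamf6 (difference of log2 folds -0.59, adjusted p 3.46e-07, CD8 below CD4 in 4 of 4 libraries) and Sh2d1a (-0.48, adjusted p 5.92e-07, 4 of 4). For Slamf7 (0.40, adjusted p 0.0046) and Cd48 (0.25, adjusted p 0.000504) the decrease was smaller in CD8 cells, in 4 of 4 libraries each. The Slamf7 difference was 0.27 (adjusted p 0.160) without the CD226-knockout library. The Slamf7 and Cd48 calls were both lost with the stricter cell filter (adjusted p 0.358 and 0.0982) and after thinning (0.481 and 0.648). Slamf1 (0.24, adjusted p 0.344), Ly9 (-0.23, adjusted p 0.292) and Cd84 (-0.05, adjusted p 0.884) did not pass. Of the pathway genes, Lck and Ptpn11 had smaller steps in CD8 cells.

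**Figure D2:**
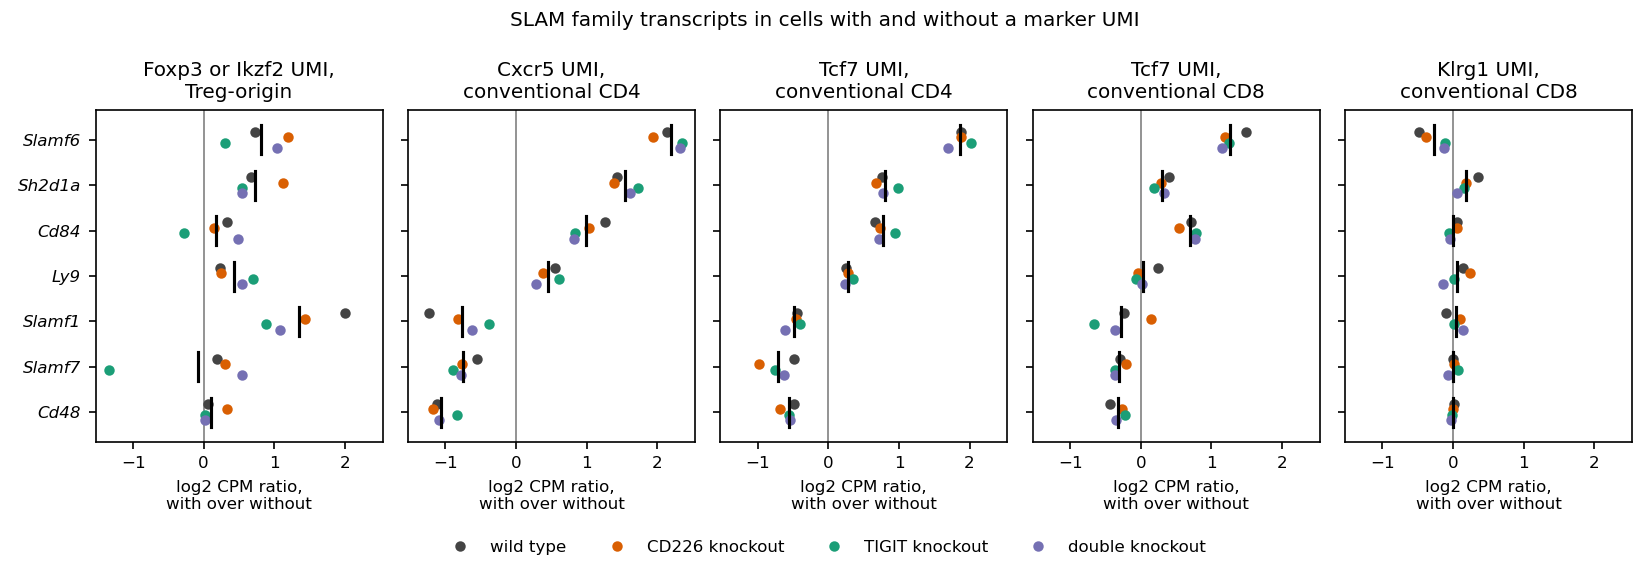
Log2 ratio of CPM in cells with a marker UMI to CPM in cells without it (x axis) for the 7 genes (y axis), in 5 comparisons. Points are the 4 libraries (colour) and black bars their means. In the panels for Cxcr5 and Tcf7 in CD4 cells, Slamf6, Sh2d1a, Cd84 and Ly9 lie right of 0 and Slamf1, Slamf7 and Cd48 left of it in all 4 libraries.

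CD8 cells with a UMI of Klrg1, a receptor gene of terminally differentiated effector cells, had slightly less Slamf6 and slightly more Sh2d1a. These were the 2 members that passed, where 1.81% of 10674 genes did (0.675% higher, 1.13% lower). Slamf6 was 57.8, 65.0, 64.3 and 74.9 CPM with and 81.1, 85.0, 69.4 and 81.5 CPM without (log2 fold -0.29, adjusted p 0.00499). Sh2d1a was 247.3, 240.4, 183.9 and 222.1 CPM with and 193.9, 212.5, 165.3 and 213.5 CPM without (log2 fold 0.19, adjusted p 0.00632). Each change had 1 direction in all 4 libraries, but the ranges overlap. Neither passed in edgeR without the wild-type library (Slamf6 -0.21, adjusted p 0.163, Sh2d1a 0.12, adjusted p 0.159) or without the CD226-knockout library (-0.26, adjusted p 0.0745, and 0.19, adjusted p 0.0578), with both at an unadjusted p under 0.05 each time. Cells with Klrg1 were 22.8% of CD8 cells in the wild-type library and 9.31% to 12.5% in the others, and were the deeper ones (11852 to 13564 against 8579 to 11404 UMIs). The 3 T cell markers summed to 1422 to 1574 CPM with and 1526 to 1644 CPM without a Klrg1 UMI. The 6 B cell markers summed to 76.5 to 103.4 against 112.3 to 173.2 CPM, and Cd4 was 25.4 to 36.6 against 20.05 to 25.7 CPM. The part of these markers in the 2 changes was not tested. Ptpn6 was the 1 pathway gene that passed (log2 fold -0.25).

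Within single cells, Slamf6 was found with Cd84 and Sh2d1a more often, and in conventional cells with Slamf7 less often, than the separate shares give. In cells thinned to 2000 UMIs, the number of cells with UMIs of both genes was divided by the number that the 2 shares alone would give, as a description of each library. In CD4 cells this ratio was 1.31 to 1.51 for Slamf6 with Cd84 and 1.27 to 1.46 for Slamf6 with Sh2d1a, above 1 in 4 of 4 libraries. Slamf6 with Slamf7 gave 0.71 to 0.85 and Slamf6 with Cd48 0.82 to 0.91, below 1 in all 4. Slamf1 with Slamf7 gave 1.15 to 1.48 and Slamf1 with Sh2d1a 1.07 to 1.22, above 1 in all 4, although the comparison by Tcf7 put Slamf1 and Sh2d1a on opposite sides. Cd84 with Sh2d1a (0.98 to 1.17) and Slamf7 with Cd84 (0.76 to 1.07) lay on both sides of 1. In CD8 cells the values for Slamf6 were 1.12 to 1.34 with Cd84, 1.04 to 1.20 with Sh2d1a, 0.74 to 0.98 with Slamf7 and 0.56 to 0.97 with Slamf1. In Treg-origin cells, of which 1427 could be thinned, Slamf6 with Sh2d1a (1.08 to 1.28) and Slamf6 with Cd84 (1.03 to 1.39) were above 1 in all libraries. Sh2d1a was so with 4 other members too, at 1.16 to 1.58 with Slamf1, 1.01 to 1.10 with Cd48, 1.13 to 1.33 with Cd84 and 1.05 to 1.59 with Ly9. Slamf6 with Slamf7 ranged from 0.60 to 1.54 on 17 cells.

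**Figure D3:**
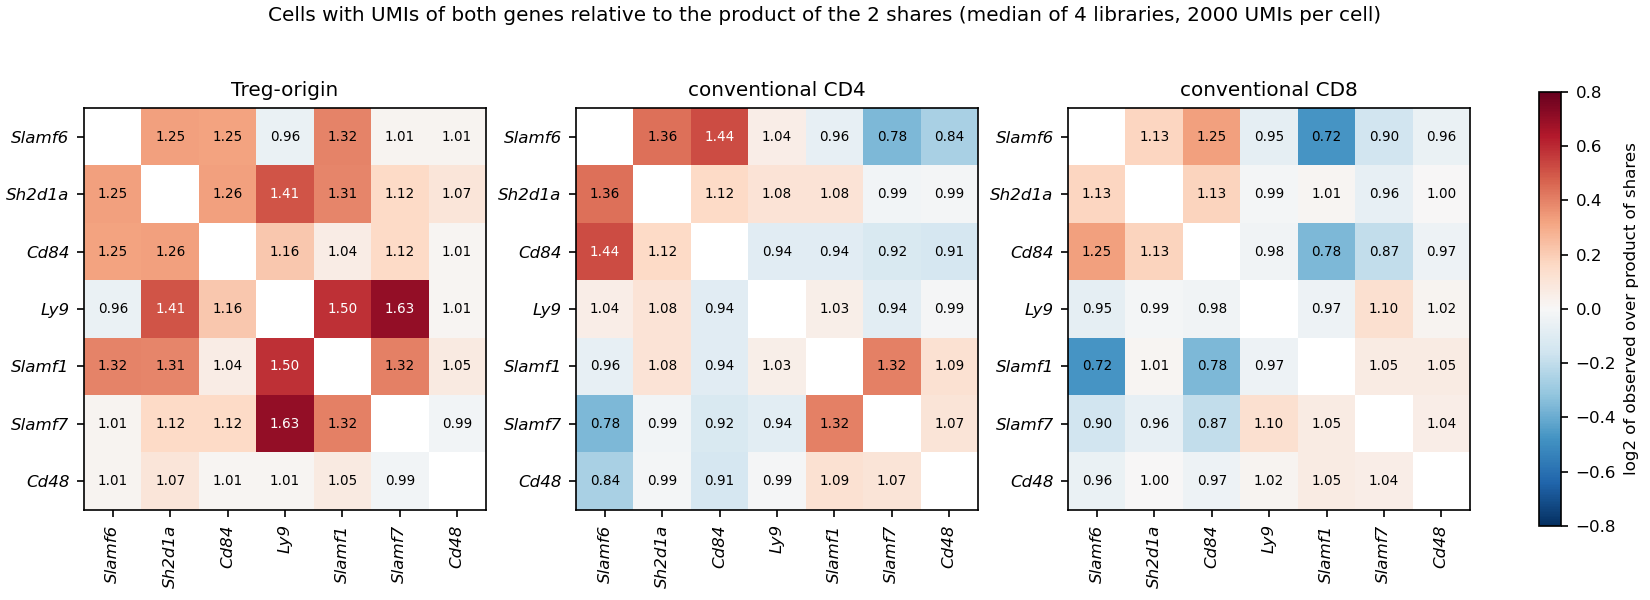
For each pair of the 7 genes (both axes), cells with UMIs of both relative to the product of the 2 shares, as the median of 4 libraries, written in each square and coloured by its log2. Cells were thinned to 2000 UMIs. In CD4 cells Slamf6 with Cd84 stands at 1.44 and Slamf6 with Slamf7 at 0.78.

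Across the 12 sums of 3 classes and 4 libraries, Slamf6 and Cd84 ran together (Pearson r 0.91 of log2(CPM + 1)), as did Slamf7 and Cd48 (0.92), and the pairs Slamf6 with Cd48 (-0.84) and Cd84 with Cd48 (-0.92) ran opposite. The highest r of Sh2d1a with a receptor was 0.53 for Slamf6, and that of Slamf1 with another member was 0.44. The 12 sums share 4 libraries and 3 class differences, so these values have no test. Among 5159 genes, those with the highest r were Limd2 (0.99) and Btg2 (0.98) for Slamf6, Tpt1 and Retreg1 (both 0.98) for Cd84, and Tmem71 (0.92) and Bdh1 (0.91) for Slamf1. For Slamf7 they were Hjurp and Ncbp2 (both 0.99), for Cd48 Dnajc15 and Ctsd (both 0.99), for Ly9 Thap7 (0.95) and Rpl36 (0.91), and for Sh2d1a Fam117b (0.89) and Foxp1 (0.84).

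Between genotypes of the transferred Treg cells there is 1 library each, so differences have no replicate check, and the 95% intervals below cover counting error only. The 7 genes in 3 classes and 4 contrasts of a single receptor gave 84 ratios, and 3 lay past 1.5-fold on the log2(CPM + 1) scale. All 3 belong to Treg-origin cells, in which 5171 genes could be compared. Slamf1 was past it for CD226 loss, at 1.56 [1.14, 2.13] with TIGIT present, where 3.25% of genes were past 1.5-fold in either direction, and at 1.89 [1.40, 2.55] with TIGIT absent, where 3.5% were. Slamf7 was past it for TIGIT loss with CD226 absent, at 1.79 [1.22, 2.66], where 4.02% of genes were, and no member was for TIGIT loss with CD226 present, where 2.17% were. In CD4 cells no member was past it, against 0.197% and 0.472% of genes in the CD226 contrasts and 0.118% and 0.0393% in the TIGIT contrasts. In CD8 cells no member was either, against 0.258% and 0.476%, and 0.238% and 0.119%.

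Slamf1 in the Treg-origin cells with a Foxp3 or Ikzf2 UMI was lower in the 2 libraries with CD226 (41.0 and 38.2 CPM) than in the 2 without (61.9 and 74.5 CPM), and in cells with neither UMI the values were 9.5 and 20.2 against 22.2 and 34.8 CPM. The values of cells with neither UMI rest on few Slamf1 UMIs, from 72 to 114 cells per library, and have no interval here. In the wild-type CD4 cells of the same libraries the CD226 ratios of Slamf1 were 1.01 [0.94, 1.08] and 1.18 [1.10, 1.28]. The Slamf1 log2 ratio with TIGIT present was 0.62 and became 0.12 after thinning and 0.43 when cells carrying markers of other types were left out. With TIGIT absent it was 0.90, 0.92 after thinning and 0.78 without those cells. The neutrophil sums of Treg-origin cells also followed CD226, at 1717 and 1565 CPM with and 5.15 and 3.90 CPM without the receptor, and the values without cells carrying such markers are those above.

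Slamf7 in Treg-origin cells was also 1.52 [1.07, 2.15] for CD226 loss with TIGIT absent, which falls short of 1.5-fold on the log2(CPM + 1) scale. The Slamf7 values of these cells rest on 41 to 86 UMIs per library, of which 5 Treg-origin cells gave 18.6% to 29.3%. The libraries with TIGIT absent were run in lane 4 and the others in lane 3, so the TIGIT contrasts and the lane cannot be told apart.

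Slamf6 was higher with CD226 loss in all 3 classes, with ratios of 1.37 [1.16, 1.63] and 1.18 [1.002, 1.39] in Treg-origin, 1.38 [1.31, 1.45] and 1.24 [1.17, 1.31] in CD4 and 1.10 [1.03, 1.16] and 1.18 [1.11, 1.24] in CD8 cells, with TIGIT present and absent. The CD4 and CD8 cells of all libraries are wild type for CD226 and TIGIT. Sh2d1a had CD226 ratios of 1.25 [1.21, 1.29] and 1.29 [1.24, 1.34] in CD4 cells, 1.04 [1.01, 1.08] and 1.27 [1.23, 1.32] in CD8 cells and 1.39 [1.20, 1.60] and 1.02 [0.89, 1.16] in Treg-origin cells. For TIGIT loss with CD226 present, Sh2d1a was 0.81 [0.78, 0.84] in CD8 and 0.87 [0.84, 0.91] in CD4 cells but 1.30 [1.13, 1.49] in Treg-origin cells. Cd48 stayed between 0.98 and 1.07 in CD4 and CD8 cells, while in Treg-origin cells it was 0.85 [0.78, 0.93] for TIGIT loss with CD226 present and 1.16 [1.06, 1.27] for CD226 loss with TIGIT absent. Cd84 and Ly9 had intervals that span 1 in Treg-origin cells in all 4 contrasts, with ratios of 0.80 to 1.09. None of these ratios of Slamf6, Sh2d1a, Cd48, Cd84 and Ly9 was past 1.5-fold. The share of all genes whose interval leaves out 1 was not counted, and such intervals are narrow in the large CD4 and CD8 sums.

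**Figure D4:**
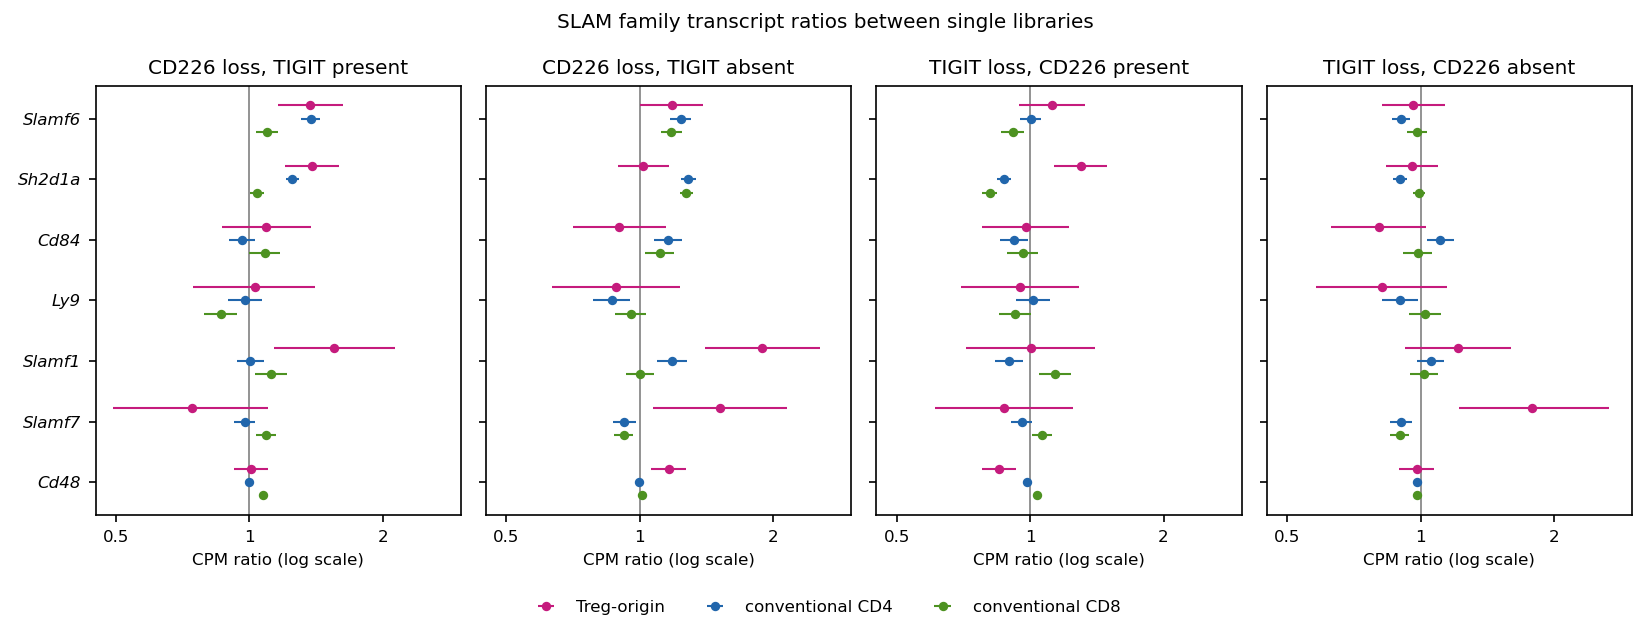
Ratio of CPM between single libraries (x axis, log scale) for the 7 genes (y axis) and 3 cell classes (colour), in 4 contrasts of 1 receptor. Bars are 95% intervals of the counts. The Treg-origin points of Slamf1 lie at 1.56 and 1.89 in the CD226 contrasts, and the narrow CD4 intervals of Slamf6 lie right of 1 in both.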

How the data were processed

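Per the labels, 4 libraries of sorted donor T cells were measured on the 10x 3′ platform. The authors deposited UMI counts per gene and barcode, with counts of 2 antibody barcodes, made with Cell Ranger 3.1.0 and mm10, per the submitters' processing notes. Genes and lists were chosen with earlier results of these data known, and genotype values of Slamf1 and Slamf6 were among those results. Each cell's ratio was log2 of CD45.1 plus 1 over CD45.2 plus 1. Conventional cells were CD4 or CD8 by the larger of Cd4 and Cd8a plus Cd8b1 UMIs, and ties or cells with neither (1565 to 2775 per library) entered no comparison. No doublet caller was used here, and cells between the cutoffs were set apart.

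UMIs were summed per class and library (82630541 to 86675591 UMIs in passing cells) and scaled to CPM. Sums of all genes were compared with edgeR 4.0.16 in R 4.3.3, by its quasi-likelihood F-test with a term for the library, after filterByExpr and TMM scaling, and p-values were adjusted by Benjamini and Hochberg's method over all genes tested and called at 0.05. The script was tested on simulated data. The sums of 1 library share its cells' source, and the libraries differ in Treg genotype. With the library term, the p-values rest on how the difference within a library varies across these libraries, with no replicate of any genotype. Because all values are relative to a class total, fewer cells of a type and less RNA per cell cannot be told apart. A gate is 1 or more UMIs of its gene. Genotype ratios are exact conditional binomial intervals, shares Clopper-Pearson intervals and CPM exact Poisson intervals, at 95%, all for counting error only. Counts of genes past 1.5-fold took those averaging 20 CPM or more, with a pseudocount of 1 CPM.

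The members were always named. Of the pathway list, the up to 4 called genes with the largest fold per comparison were named, and for each member the 2 genes with the highest r. The alternatives were DESeq2 1.42.0, no filter on low counts, no library term, leaving out each library, stricter cells (1000 genes, 5% mitochondrial UMIs), stricter antibody cutoffs, leaving out cells with 2 or more UMIs of other types' markers, thinning to 2000 UMIs, a pseudocount of 5 CPM and TMM-scaled totals. Markers of other types were those of B cells except Ighm and Igkc, and those of myeloid, neutrophil, erythroid and dendritic cells.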

Additional observations from a re-analysis of the deposited data

Results flagged for a closer look

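For 4 genes the step between cells with and without a Tcf7 UMI differed between conventional CD8 and CD4 cells in edgeR's test of that difference. The difference of log2 folds, CD8 minus CD4, was -0.59 for Slamf6, -0.48 for Sh2d1a, 0.40 for Slamf7 and 0.25 for Cd48. The direction was the same in all 4 libraries for each. Cells with a Tcf7 UMI were shallower than the rest among CD4 cells and slightly deeper among CD8 cells. After thinning to 2000 UMIs the difference was -0.95 for Slamf6 and -1.10 for Sh2d1a, which passed, and 0.72 for Slamf7 and 0.22 for Cd48, which did not. Any further part of depth was not tested.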

How the results depend on the processing

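Of 604 values of single members in tested comparisons under the alternatives, 525 kept direction and side of the threshold, 12 newly passed, 31 no longer passed and 36 changed sign, of which 34 passed in neither setting. The 2 others were Sh2d1a between Treg-origin and CD4 cells (0.31 with stricter antibody cutoffs) and Ly9 with a Cxcr5 UMI (-0.17 after thinning). After thinning, log2 folds also changed sign for Slamf1 (0.093) and Sh2d1a (0.155) between Treg-origin and CD4 cells, Ly9 between CD8 and CD4 cells (-0.013), Cd48 for Foxp3 or Ikzf2 (-0.071), Ly9 for Tcf7 in CD8 cells (-0.709), Slamf1 (-0.471) and Ly9 (-0.038) for Klrg1, and Slamf1 for the Tcf7 difference (-0.884). With stricter antibody cutoffs they were 0.041 for Slamf1 between Treg-origin and CD4 cells, -0.0074 for Cd48 by Foxp3 or Ikzf2, and, for Klrg1, -0.013 for Slamf1, -0.010 for Slamf7, 0.0023 for Cd48 and -0.076 for Cd84. With stricter cells they were 0.031 for Sh2d1a between Treg-origin and CD4 cells, -0.020 for Slamf7 by Klrg1 and 0.099 for Cd84 in the Tcf7 difference. Without cells carrying other types' markers they were -0.038 for Slamf1 and -0.0033 for Cd84 by Klrg1, and 0.034 for Cd84 in the Tcf7 difference. For Klrg1 they were -0.0074 for Slamf7 and -0.0058 for Cd84 without the count filter, and -0.0016 for Cd84 without the replicate block. Leaving out each library gave -0.13 to 0.056 for Sh2d1a between Treg-origin and CD4 cells, -0.0085 to 0.054 for Ly9 between CD8 and CD4 cells, -0.42 to 0.34 for Slamf7 by Foxp3 or Ikzf2 and -0.037 to 0.075 for Ly9 by Tcf7 in CD8 cells. For Klrg1 it gave -0.0056 to 0.082 for Slamf1, -0.017 to 0.027 for Slamf7, -0.016 to 0.00055 for Cd48 and -0.018 to 0.024 for Cd84. With stricter antibody cutoffs 0 members passed for Foxp3 or Ikzf2. For Klrg1, 0 passed in edgeR without the replicate block (the library term dropped; 1 at an unadjusted p under 0.05) and 0 after thinning (1), against 2 in DESeq2, and leaving out each library gave 0 to 2. For the Tcf7 difference, 2 passed with stricter cells and 2 after thinning. The labels number no replicates that would pair libraries, so the library itself was the block, and dropping the replicate block also lost Sh2d1a for Tcf7 in CD8 cells (log2 fold 0.31, adjusted p 0.0516). The cause was not tested. The count of genotype ratios past 1.5-fold was 2 to 4 over the alternatives, and 470 of 504 single ratios moved by less than their interval. Treg-origin sums rest on 332 to 462 cells, which limits the precision of Slamf1, Slamf7 and Ly9 there.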

Other observations

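Cells whose antibody ratio lay between the cutoffs entered no comparison. The transferred marrow carried both CD45 forms. These cells numbered 874, 971, 1144 and 434 in the wild-type, CD226-, TIGIT- and double-knockout libraries. Their Slamf7 level was 73.1, 89.1, 72.6 and 73.5 CPM, above that of Treg-origin cells in each library. Their Slamf6 level was 75.8, 95.1, 95.7 and 111.2 CPM and their Sh2d1a level 190.5, 254.5, 174.8 and 189.0 CPM. In these cells the 5 neutrophil markers summed to 1040 to 7462 CPM, the 6 B cell markers to 147 to 2621 CPM and the 5 erythroid markers to 173 to 1874 CPM.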
